A study of Rattus norvegicus with 28 samples.

Results

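Astrocyte identity and glutamate uptake were followed through 6 genes, Gfap, Vim, Aqp4, S100b, Slc1a2 and Slc1a3, of the 32545 genes in the deposited count table. The members were chosen by name, as the rows ENSRNOG00000002919 (Gfap), ENSRNOG00000018087 (Vim), ENSRNOG00000016043 (Aqp4), ENSRNOG00000001295 (S100b), ENSRNOG00000005479 (Slc1a2) and ENSRNOG00000016163 (Slc1a3). All 6 were found and all 6 passed the filter on low counts. The study sequenced RNA of rat neural progenitor cells, by its labels, in 28 samples that form 7 groups of 4. The groups were cells kept under culture conditions, cells exposed to spinal cord for which no injury is mentioned (called uninjured here) and labelled 2, 3 or 4 weeks, and cells exposed to injured spinal cord and labelled 2, 3 or 4 weeks. The title and the design line of the series concern transplantation of such cells into injured spinal cord in rodents. No strain, sex, age, cell line, injury model, sorting step or source animal is given, nor the event from which the weeks are counted, so the samples of a group may share a culture or an animal, and a p-value here may rest on technical spread alone.

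Astrocytes are the glial cells that hold up the structure of the spinal cord, buffer ions and water and clear transmitter from synapses. After injury they become reactive, enlarge and raise their intermediate filaments, and they form the border of the scar. Glutamate is removed from the extracellular space mainly by the astrocyte transporters GLAST (Slc1a3), which immature glia already carry, and GLT-1 (Slc1a2), which rises as astrocytes mature. Neural progenitor cells in culture typically express vimentin and GLAST before they differentiate. None of the 6 genes is fully specific to astrocytes: Vim is also made by progenitors, fibroblasts and endothelium, S100b by oligodendrocyte lineage cells, and Gfap by some neural stem cells.

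The sequences before the starts of the 2 intermediate filament genes are shown because the ratio of their counts is followed through the libraries below. Each is the 250 bases before the annotated start in RefSeq (build GRCr8, 5′ to 3′ on the strand of the gene), with motif matches on either strand in capitals. The motifs searched were the TATA box (TATAAA), the CCAAT box, the GC box (GGGCGG), the core of STAT sites (TTCNNNGAA) and the AP-1 site (TGANTCA). All 6 genes had an entry in that RefSeq table.
Gfap (chr10:88361662-88361911, minus strand): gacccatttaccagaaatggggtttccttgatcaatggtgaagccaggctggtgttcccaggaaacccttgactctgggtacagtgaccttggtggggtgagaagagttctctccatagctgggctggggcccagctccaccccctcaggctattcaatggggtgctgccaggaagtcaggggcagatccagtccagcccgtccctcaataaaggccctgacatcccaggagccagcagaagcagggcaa
Vim (chr17:81577011-81577260, plus strand): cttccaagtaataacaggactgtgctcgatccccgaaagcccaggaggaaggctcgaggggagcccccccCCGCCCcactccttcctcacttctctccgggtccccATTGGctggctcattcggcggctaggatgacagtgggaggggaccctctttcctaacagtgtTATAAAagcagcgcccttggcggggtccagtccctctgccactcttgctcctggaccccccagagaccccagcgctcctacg
In the Vim window the TATA box lay 82 to 77 bases before the start, the CCAAT box (reversed) 144 to 140 bases before it and the GC box (reversed) 180 to 175 bases before it, with no overlap between matches. Among all 33469 such windows, 12.9% held the TATA box, 34.0% the CCAAT box and 30.5% the GC box. The STAT core was in 7.67% of windows and the AP-1 site in 6.34%. In the Gfap window none of the 5 motifs was found. Nothing in these RNA data measured binding at either window.

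Levels are given as CPM (counts of a gene relative to the scaled library total) with libraries scaled by trimmed mean of M values (TMM), a scaling on genes shared between libraries. Libraries of week 2 held 84532 to 446331 counts and all others 2605188 to 6908508, so week 2 and low depth coincide. Injured week 3 replicate 3 lacked many genes of its companions and was left out of the fit. No member was at 0 there, and its levels are given beside the others on the scaling of all 28 libraries. Uninjured week 4 replicate 3 stood apart in another way. Of 10863 genes, 60 (0.552%) were at least 4-fold above all other libraries of its group in it, against 0 to 22 in the other libraries of culture and weeks 3 and 4. It detected 20098 genes, the other 3 libraries of its group 17623 to 18302. Gfap, Aqp4 and Slc1a2 were far above their companions in it, so results that rest on it are given with and without it where both were computed. The files carry identifiers without symbols and no identifier matched the RefSeq gene table, so lists of other astrocyte genes, glutamate genes and markers of neurons, oligodendrocytes, microglia, endothelium, fibroblasts and ependyma could not be applied. The labelled cell type was therefore not checked with markers, and the part of surrounding cord tissue in any level was not tested. In such bulk samples, fewer cells of a type and less RNA per cell cannot be told apart.

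Against culture, Vim and Slc1a3 fell in all 6 cord groups and Slc1a2 fell in 4, while Gfap was called in no cord group by edgeR's fit of 27 libraries. DESeq2 called Gfap lower in uninjured week 3 (adjusted p = 0.0419) and higher in injured week 3 (adjusted p = 0.0342). Of the 6 members, 3 were called in uninjured week 2 (1 higher and 2 lower), 3 in uninjured week 3 (all lower) and 4 in uninjured week 4 (1 higher and 3 lower) by edgeR's quasi-likelihood test at an adjusted p under 0.05. The share of all 14282 genes called was 42.1% (20% higher, 22.1% lower) in uninjured week 2, 49.9% (26% higher, 23.9% lower) in week 3 and 46.3% (26.3% higher, 20% lower) in week 4. Without uninjured week 4 replicate 3 the uninjured week 4 count was again 4, now all lower, against 44.7% of all genes. Gfap was then called lower (edgeR adjusted p = 0.000117) and Aqp4 was not called (edgeR adjusted p = 0.639). In injured cord 3 members were called at each of weeks 2, 3 and 4, all lower. The shares of all genes were 45% (19.3% higher, 25.7% lower), 19.2% (9.19% higher, 10% lower) and 33.6% (18.1% higher, 15.5% lower). These 6 comparisons share the 4 culture libraries.

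Injured against uninjured cord gave 0 called members at week 2, where 3.37% of all genes were called (1.2% higher, 2.16% lower). At an unadjusted p under 0.05 Slc1a2 alone passed at week 2, and the share of all genes at that threshold was not computed. DESeq2 called Slc1a2 too, against 10.8% of all genes. Without the filter on low counts edgeR called Slc1a2 and Aqp4, against 2.39% of all genes. At week 3 edgeR called 2 members, Gfap and Slc1a2, both higher, against 46% of all genes (20.7% higher, 25.3% lower). At week 4 it called 2 members, Vim and S100b, both lower, against 27.3% of all genes (12.1% higher, 15.2% lower). Without uninjured week 4 replicate 3 the week 4 count was 4, with Gfap and Slc1a2 higher and Vim and S100b lower, against 24.4% of all genes. The median log2 fold change of the 6 members was -0.54, 0.10 and -0.77 at weeks 2, 3 and 4, and that of all genes -0.05, 0.01 and 0.01. The week 4 median of the members includes uninjured week 4 replicate 3. Without that library Gfap (2.93), Aqp4 (1.003) and Slc1a2 (3.15) were positive at week 4, and Vim (-1.26), S100b (-0.89) and Slc1a3 (-0.62) negative. At each week the members had log2 fold changes of both signs.

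**Figure D1:**
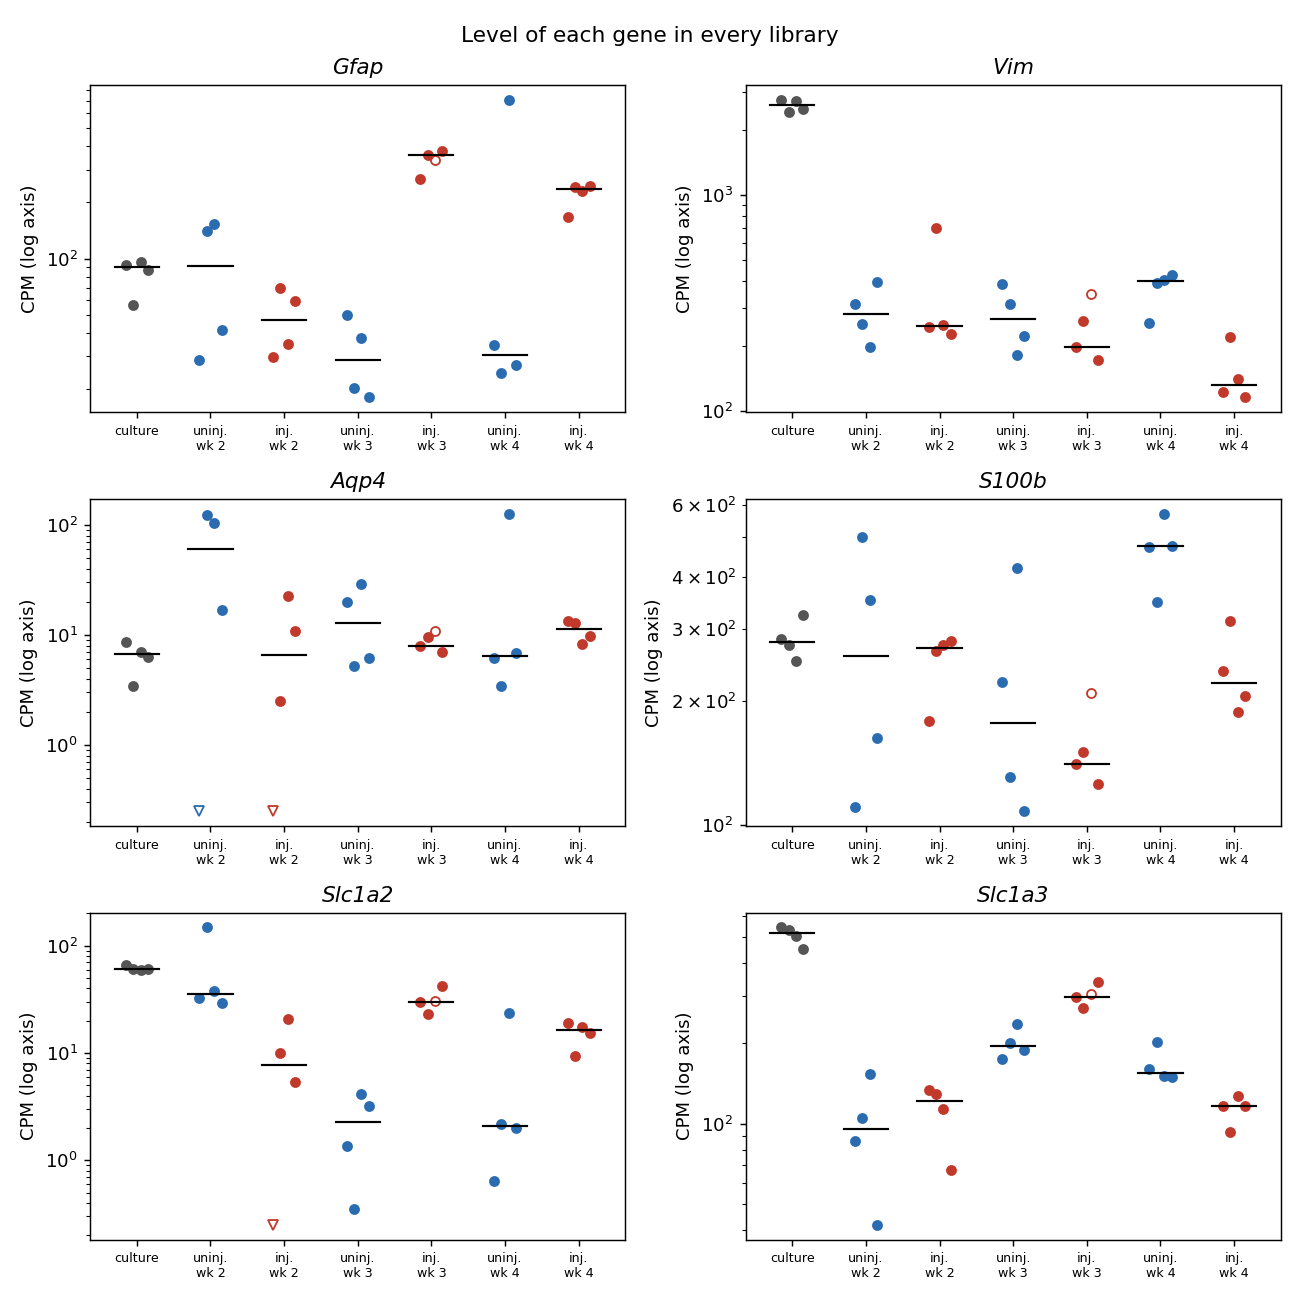
Level of each gene in CPM (log axis) in all 28 libraries by group. Filled points are the 27 libraries of the fit, open circles injured week 3 replicate 3, open triangles counts of 0 drawn at the foot of the axis, and lines the group medians of the 27. Gfap, Aqp4 and Slc1a2 each have 1 uninjured week 4 library far above the other 3, and Vim is highest in the 4 culture libraries.

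Gfap encodes glial fibrillary acidic protein, the intermediate filament by which astrocytes are usually recognised. In culture it stood at 92.8, 56.5, 95.6 and 87.4 CPM in replicates 1 to 4. In uninjured week 3 libraries it stood at 49.7, 20.3, 37.4 and 18.1 CPM, all below culture. In injured week 3 libraries it stood at 268, 357 and 377 CPM in replicates 1, 2 and 4, and at 336 CPM in the replicate left out. Every injured week 3 library was above every uninjured week 3 and every culture library. The log2 fold change at week 3 was 3.39 ± 0.87 (SE, standard error), or 10.5-fold (edgeR adjusted p = 0.00278). With all 28 libraries it was 3.55 (edgeR adjusted p = 0.000515), and over 14 alternatives it stayed between 3.21 and 3.84 with adjusted p from 6.83e-28 to 0.0118.

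At week 4 the injured libraries held 167, 241, 229 and 246 CPM of Gfap. The uninjured ones held 34.3, 24.5, 709 and 26.9 CPM, so that 3 of 4 lay below every injured library and replicate 3 lay above all of them. That replicate was 24.8-fold above the mean of its companions, 28.6 ± 5.11 CPM (SD, n = 3). The week 4 log2 fold change was 0.16 ± 0.76 (SE) with it (edgeR adjusted p = 0.91). Without it the value was 2.93 ± 0.37 (SE), or 7.64-fold (edgeR adjusted p = 2.05e-08), and over 15 alternatives adjusted p ran from 2.05e-08 to 0.996. The same library set the direction against culture. Uninjured week 4 was above culture by 1.25 ± 0.77 (SE) on the log2 scale with it (edgeR adjusted p = 0.197). Without it uninjured week 4 was below culture, at -1.68 ± 0.36 (SE) (edgeR adjusted p = 0.000117, and 0.000117 to 0.394 over the alternatives).

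Week 2 counts of Gfap were low, 7 to 64 in uninjured and 4 to 28 in injured libraries. Levels were 28.7, 141, 153 and 41.7 CPM in uninjured and 29.7, 69.9, 35.04 and 59.1 CPM in injured libraries. The uninjured values fell into a high and a low pair and the injured values lay within their range. The log2 fold change was -0.91 ± 1.01 (SE) (edgeR adjusted p = 0.661). In injured cord Gfap rose from week 2 to week 3 by 2.72 ± 0.96 (SE) on the log2 scale (edgeR adjusted p = 0.0261), though without injured week 2 replicate 1, 3 or 4 the adjusted p was 0.0684, 0.0692 and 0.0501. Weeks 3 and 4 of injured cord did not overlap, with the lowest week 3 library at 268 and the highest week 4 library at 246 CPM. The change of -0.60 on the log2 scale did not pass the test (SE 0.81, edgeR adjusted p = 0.692). Against culture, injured cord stood 4.02-fold higher at week 3 (edgeR adjusted p = 0.102) and 2.65-fold higher at week 4 (edgeR adjusted p = 0.182), without overlap and without passing in the fit of 27 libraries. The week 3 rise passed in DESeq2 (adjusted p = 0.0342), without the filter on low counts (edgeR adjusted p = 1.81e-09) and when only the compared groups were fitted (edgeR adjusted p = 2.87e-08), with log2 fold changes of 2.04, 1.96 and 2.01, and over its 14 alternatives adjusted p reached 0.223. The week 4 rise passed without the filter (edgeR adjusted p = 0.000191) and with the compared groups only (edgeR adjusted p = 3.51e-06), and reached 0.382 over 15 alternatives. Uninjured week 3 stood below culture by a log2 fold change of -1.38 ± 0.79 (SE, edgeR adjusted p = 0.156). That fall passed in DESeq2 (adjusted p = 0.0419), without the filter (edgeR adjusted p = 2.59e-07) and with the compared groups only (edgeR adjusted p = 0.000654), and adjusted p reached 0.281 over 15 alternatives. What made these calls differ was not tested.

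Vim encodes vimentin, the intermediate filament of progenitors, immature astrocytes and many mesenchymal cells. Culture libraries held 2747, 2420, 2714 and 2483 CPM. No cord library exceeded 701 CPM, so culture and cord did not overlap. The log2 fold changes against culture were -3.17, -3.23 and -2.81 in uninjured weeks 2, 3 and 4. In injured cord they were -2.85, -3.62 and -4.11, all with edgeR adjusted p of 2.96e-10 or lower. The largest of these, injured week 4, was -4.11 ± 0.32 (SE) on the log2 scale (edgeR adjusted p = 1.51e-14).

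Between cord groups Vim differed less. At week 4 it stood at 257, 393, 403 and 427 CPM in uninjured and at 122.7, 220.6, 141.6 and 116.1 CPM in injured libraries, with no overlap. The log2 fold change was -1.30 ± 0.29 (SE), or 2.46-fold lower after injury (edgeR adjusted p = 0.000426), and it passed under all 15 alternatives, with adjusted p from 1.06e-06 to 0.00409. At week 3 the ranges overlapped, 182 to 386 CPM in uninjured and 172 to 260 CPM in the injured libraries fitted, with 349 CPM in the replicate left out (log2 fold change -0.39 ± 0.31 (SE), edgeR adjusted p = 0.319). At week 2 the uninjured range was 198 to 397 CPM and the injured one 229 to 701 CPM (log2 fold change 0.32 ± 0.30 (SE), edgeR adjusted p = 0.583). The 701 CPM of injured week 2 replicate 2 rests on 281 counts, and the other 3 libraries of its group held 229 to 249 CPM. From week 2 to week 3 of injured cord Vim fell by 0.78 on the log2 scale (SE 0.32, edgeR adjusted p = 0.0439). That call rested on injured week 2 replicate 2, without which the change was -0.20 (edgeR adjusted p = 0.616). It was also lost with all 28 libraries and without any 1 of the injured week 3 replicates (edgeR adjusted p = 0.055 to 0.271).

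The ratio of Gfap to Vim counts within a library, with 0.5 added to each count, does not depend on how libraries are scaled. Gene length is not accounted for, so it compares libraries and not the levels of both genes. It was 0.0338, 0.0234, 0.0353 and 0.0352 in culture. Injured week 3 libraries had 1.35, 1.37 and 2.19, with 0.964 in the replicate left out, and injured week 4 libraries 1.36, 1.09, 1.62 and 2.12. Uninjured week 3 libraries had 0.129, 0.0656, 0.206 and 0.0824, and uninjured week 4 libraries 0.134, 0.0627, 1.76 and 0.0634. Uninjured week 4 replicate 3 was thus within the injured range and its 3 companions were not.

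On the log2 scale the Gfap to Vim ratio at week 3 was 0.67 ± 0.39 (SD, n = 3) in injured and -3.19 ± 0.73 (SD, n = 4) in uninjured libraries. The difference of 3.86 had an exact two-sided permutation p of 0.0286, the smallest that 3 against 4 libraries allow, and 0.0571 after adjustment over 6 ratio tests. At week 4 the difference was 3.10 (exact permutation p = 0.114, adjusted 0.137), and without uninjured week 4 replicate 3 it was 4.21 (exact permutation, adjusted p = 0.0343, against 0.0343 to 0.171 over the libraries left out in turn). At week 2 it was -0.79 (exact permutation p = 0.4). At weeks 3 and 4 the direction was thus the same at both times, and at week 2 the groups overlapped. The adjusted 0.0571 and 0.0343 depend on how many of the 6 ratio tests reached their smallest p. They therefore do not rank the week 4 difference above that of week 3.

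**Figure D2:**
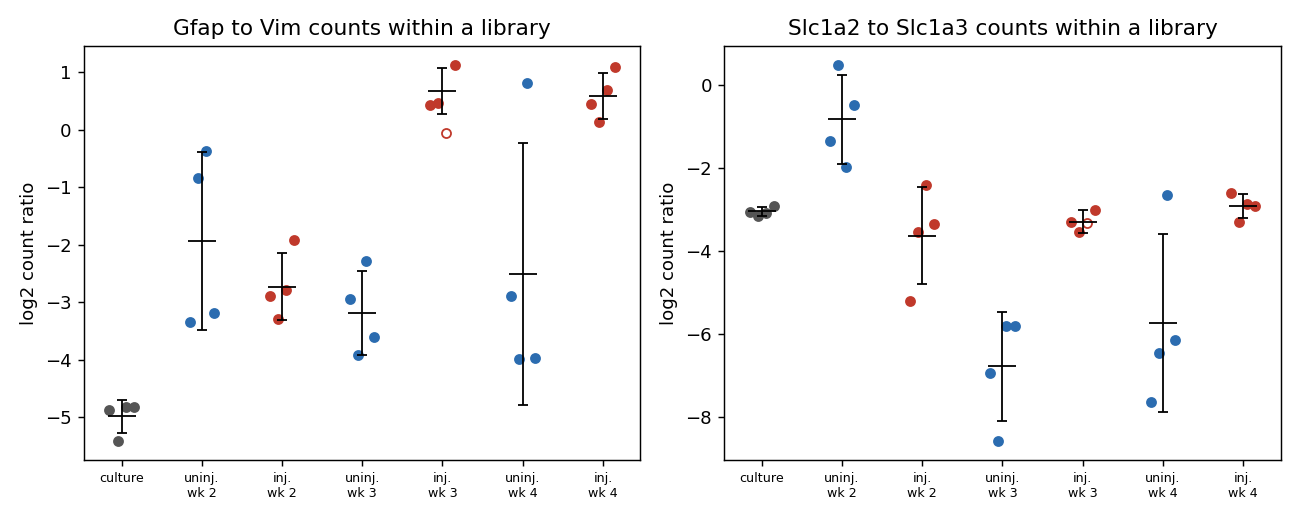
Log2 ratio of Gfap to Vim counts and of Slc1a2 to Slc1a3 counts within each library, by group. Filled points are the libraries tested, the open circle injured week 3 replicate 3, bars the mean ± SD. The Gfap to Vim ratio is -4.99 ± 0.29 in culture and 0.67 ± 0.39 in injured week 3. Uninjured week 4 replicate 3 is above its companions in both panels.

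Aqp4 encodes aquaporin-4, the water channel of astrocyte endfeet. Its counts were low, and 2 week 2 libraries had 0, which allows up to 22.3 CPM in injured week 2 replicate 1 and 12.3 CPM in uninjured week 2 replicate 1 (a floor of 3 counts, covering counting error only). Culture held 8.57, 3.45, 6.93 and 6.33 CPM. Injured week 3 held 7.88, 9.61 and 6.94 CPM, with 10.9 in the replicate left out, and injured week 4 held 13.3, 12.8, 8.28 and 9.80 CPM. Levels in injured cord and in culture overlapped at each week, and none of the 3 comparisons passed the test in the fit of 27 libraries. Over 15 alternatives the adjusted p of injured week 4 against culture ran from 0.0187 to 0.802, and it passed with the compared groups only.

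The highest Aqp4 levels were in uninjured libraries of weeks 2 and 4. Uninjured week 4 libraries held 6.15, 3.40, 126.6 and 6.79 CPM, the third being 23.2-fold above the mean of the others. Uninjured week 2 libraries held 0, 122.8, 105.2 and 16.7 CPM, from 0, 34, 44 and 4 counts. Uninjured week 3 libraries held 19.7, 5.25, 29.1 and 6.14 CPM. The edgeR fit called Aqp4 higher than culture in uninjured week 2 (log2 fold change 3.34 ± 1.04 (SE), adjusted p = 0.0134) and week 4 (log2 fold change 2.46 ± 0.92 (SE), adjusted p = 0.0331). Both groups overlapped with culture. Without uninjured week 4 replicate 3 the week 4 value was -0.37 ± 0.59 (SE) (edgeR adjusted p = 0.639, against 1.16e-08 to 0.639 over 15 alternatives). The week 4 call was also lost without any 1 culture library (edgeR adjusted p = 0.0531 to 0.0981). The week 2 call was lost without uninjured week 2 replicate 2 or 3 (edgeR adjusted p = 0.0581 and 0.0673). Uninjured week 3 was not called against culture (log2 fold change 1.27 ± 0.92 (SE), edgeR adjusted p = 0.267). It passed without the filter on low counts (edgeR adjusted p = 0.0198) and with the compared groups only (edgeR adjusted p = 0.0213).

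Injured against uninjured, Aqp4 did not pass the test at any week (edgeR adjusted p = 0.287, 0.508 and 0.194 at weeks 2, 3 and 4). The week 4 log2 fold change was -1.66 ± 0.91 (SE) and turned to 1.003 ± 0.59 (SE) without uninjured week 4 replicate 3 (edgeR adjusted p = 0.242).

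S100b encodes a calcium binding protein of astrocytes and some oligodendrocyte lineage cells. It stood at 283, 273, 251 and 323 CPM in culture. Uninjured week 4 libraries were the highest group, with 474, 347, 571 and 477 CPM, and injured week 4 libraries held 237, 313, 188 and 205 CPM. The groups did not overlap, and S100b was 1.98-fold lower after injury at week 4 (log2 fold change -0.99 ± 0.32 (SE), edgeR adjusted p = 0.0159). The adjusted p ran from 0.00102 to 0.0553 over 15 alternatives, with 0.0553 for all 28 libraries and 0.0509 without injured week 4 replicate 3. Uninjured week 4 replicate 3 was 1.32-fold above the mean of its companions, and the value without it was -0.89 (edgeR adjusted p = 0.0459).

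At week 3 S100b held 222.5, 130.9, 420.02 and 108.01 CPM in uninjured and 140.7, 150.04 and 125.9 CPM in injured libraries, with 209 CPM in the replicate left out. The uninjured values spread over both sides of the injured ones (log2 fold change -0.67 ± 0.35 (SE), edgeR adjusted p = 0.115). Without uninjured week 3 replicate 3 the value was -0.01 (edgeR adjusted p = 0.979), without injured week 3 replicate 4 it was -0.35 (0.498) and without uninjured week 3 replicate 4 it was -0.89 (0.0389). Uninjured week 3 replicates 1 and 3, the higher for S100b, were also the higher for Gfap and Aqp4. Injured week 3 was 2.03-fold below culture (edgeR adjusted p = 0.0314), a call that was lost with all 28 libraries (edgeR adjusted p = 0.112), without any 1 of the 3 injured week 3 libraries and without culture replicate 1 or 4 (edgeR adjusted p = 0.0565 to 0.112). It was also 1.82-fold below injured week 2 (edgeR adjusted p = 0.0469), and this too was lost with all 28 libraries (edgeR adjusted p = 0.119), without injured week 2 replicate 2, 3 or 4 and without injured week 3 replicate 2 or 4 (edgeR adjusted p = 0.076 to 0.199). At week 2 the injured range of 178 to 280 CPM lay within the uninjured range of 110.7 to 501.9 CPM (log2 fold change -0.17 ± 0.34 (SE), edgeR adjusted p = 0.838).

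Slc1a2 encodes GLT-1, the main glutamate transporter of mature astrocytes. Culture libraries held 65.9, 60.4, 60.0 and 60.4 CPM. In uninjured week 3 libraries it stood at 1.36, 0.350, 4.12 and 3.23 CPM, from 9, 1, 13 and 10 counts. Every such library was below every culture library, and the fall was 27.8-fold (log2 fold change -4.80 ± 0.66 (SE), edgeR adjusted p = 1.67e-07). Uninjured week 4 libraries held 0.647, 2.18, 23.7 and 1.98 CPM, replicate 3 standing 14.8-fold above the mean of the others. The fall from culture was 9.20-fold with it (log2 fold change -3.20 ± 0.58 (SE), edgeR adjusted p = 2.35e-05) and 40.1-fold without it (log2 fold change -5.33 ± 0.55 (SE), edgeR adjusted p = 3.53e-11, against 4.54e-17 to 0.00537 over the alternatives).

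Injured cord held more Slc1a2 at weeks 3 and 4 than most uninjured libraries. At week 3 the injured libraries held 30.1, 23.2 and 42.0 CPM, with 30.4 in the replicate left out, all above the uninjured ones. The log2 fold change was 3.84 ± 0.68 (SE), or 14.3-fold (edgeR adjusted p = 1.51e-05), and it passed under all 14 alternatives, with values from 3.53 to 4.39. At week 4 the injured libraries held 19.2, 9.35, 17.3 and 15.3 CPM, above 3 of the 4 uninjured libraries and below replicate 3. The log2 fold change was 1.198 ± 0.59 (SE) (edgeR adjusted p = 0.139), and 3.15 ± 0.55 (SE) without that library (edgeR adjusted p = 1.42e-05, against 1.42e-05 to 0.383 over 15 alternatives). Injured week 4 stayed 4.01-fold below culture (edgeR adjusted p = 0.00305). Injured week 3 was 1.94-fold below culture without overlap and did not pass the test (edgeR adjusted p = 0.268).

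At week 2 the order was the other way round. Uninjured libraries held 32.8, 148, 38.2 and 29.2 CPM of Slc1a2, from 8, 41, 16 and 7 counts, and injured libraries 0, 9.98, 20.6 and 5.38 CPM, from 0, 4, 10 and 2 counts. The groups did not overlap. The log2 fold change of -2.47 ± 0.83 (SE) did not pass the test (edgeR adjusted p = 0.0839), while DESeq2 gave an adjusted p of 0.0233 and the range over 14 alternatives was 0.00268 to 1. Without uninjured week 2 replicate 2, the library at 148 CPM, the value was -1.61 ± 0.89 (SE, edgeR adjusted p = 0.316). The 0 of injured week 2 replicate 1 allows up to 22.3 CPM. In uninjured cord Slc1a2 fell from week 2 to week 3, with a log2 fold change of -4.80 ± 0.74 (SE) (edgeR adjusted p = 3.13e-05), and it passed under all 14 alternatives. Week 2 libraries of the uninjured group held 189626 to 426992 counts and week 3 libraries 2886760 to 6824050, and the part of depth in this fall was not tested.

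Slc1a3 encodes GLAST, the glutamate transporter of radial glia, progenitors and astrocytes. Culture was highest, with 544, 534, 508 and 452 CPM. All cord libraries were below culture, the nearest being an injured week 3 library at 339 CPM. The falls against culture were 5.13-fold, 2.54-fold and 3.07-fold in uninjured weeks 2, 3 and 4 (edgeR adjusted p = 1.94e-09, 9.47e-06 and 4.05e-07). In injured cord they were 4.67-fold, 1.68-fold and 4.49-fold (edgeR adjusted p = 6.55e-09, 0.0374 and 1.08e-09). The injured week 3 call was lost without injured week 3 replicate 1 or 2 or culture replicate 1, 2 or 3 (edgeR adjusted p = 0.0503 to 0.111) and without the filter on low counts (0.0584).

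Injured cord was above uninjured cord in Slc1a3 at week 3 and below it at week 4. Week 3 libraries held 297, 273 and 339 CPM in injured and 176, 200.2, 237 and 190 CPM in uninjured exposure, with 308 CPM in the replicate left out. Week 4 libraries held 116.5, 93.2, 127.1 and 116.7 CPM in injured and 161, 203, 150.4 and 150.0 CPM in uninjured exposure. Neither pair of groups overlapped. The log2 fold changes were 0.60 ± 0.26 (SE) and -0.55 ± 0.24 (SE), and each missed the threshold (edgeR adjusted p = 0.0548 and 0.0888). The week 3 difference passed in all 7 alternatives that leave out no single library, with log2 fold changes from 0.58 to 0.84. These include all 28 libraries (0.74, edgeR adjusted p = 0.0181), DESeq2 (0.84, adjusted p = 9.67e-07), the compared groups only (0.58, edgeR adjusted p = 0.0148) and no week 2 libraries (0.58, edgeR adjusted p = 0.0028). Under relative log expression (RLE) factors it was 0.84 (edgeR adjusted p = 0.00384), and the median of all genes moved by 0.25. With single libraries left out it passed without injured week 3 replicate 2 or 4 or uninjured week 3 replicate 3 and missed without each of the other 4 (edgeR adjusted p = 0.0531 to 0.109). The week 4 difference passed in DESeq2 (-0.55, adjusted p = 0.00171), with the compared groups only (-0.64, edgeR adjusted p = 0.00616), without week 2 libraries (-0.57, edgeR adjusted p = 0.00341) and with upper quartile factors (-0.60, edgeR adjusted p = 0.0492). It missed in the other 11 alternatives (edgeR adjusted p = 0.0693 to 0.21).

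The change of the injury effect between weeks 3 and 4 was tested as such. Slc1a3 passed with -1.15 ± 0.35 (SE) on the log2 scale (edgeR adjusted p = 0.0163), and under all 22 alternatives, with adjusted p up to 0.0337. Slc1a2 passed with -2.64 ± 0.91 (SE) (edgeR adjusted p = 0.0387) but stood at -0.81 without uninjured week 4 replicate 3 (edgeR adjusted p = 0.597). That call was also lost with all 28 libraries (edgeR adjusted p = 0.0678) and without injured week 3 replicate 1 or 4, uninjured week 3 replicate 1 or 2 or injured week 4 replicate 2 (edgeR adjusted p = 0.0599 to 0.0831). The Slc1a2 call was lost too with the compared groups only and without the week 2 libraries. Gfap, at -3.23 ± 1.14 (SE), missed the threshold (edgeR adjusted p = 0.0525). It passed in some alternatives, among them all 28 libraries (edgeR adjusted p = 0.0217), and stood at -0.58 without uninjured week 4 replicate 3 (edgeR adjusted p = 0.495). Over its 22 alternatives adjusted p ran from 5.41e-15 to 0.495, and with single libraries left out from 0.0137 to 0.495 (edgeR). With 27 libraries 2 of 6 members were called in this test, both lower, against 18.7% of all genes (11.5% higher, 7.26% lower), and without that replicate 1 was, against 15.7%.

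**Figure D3:**
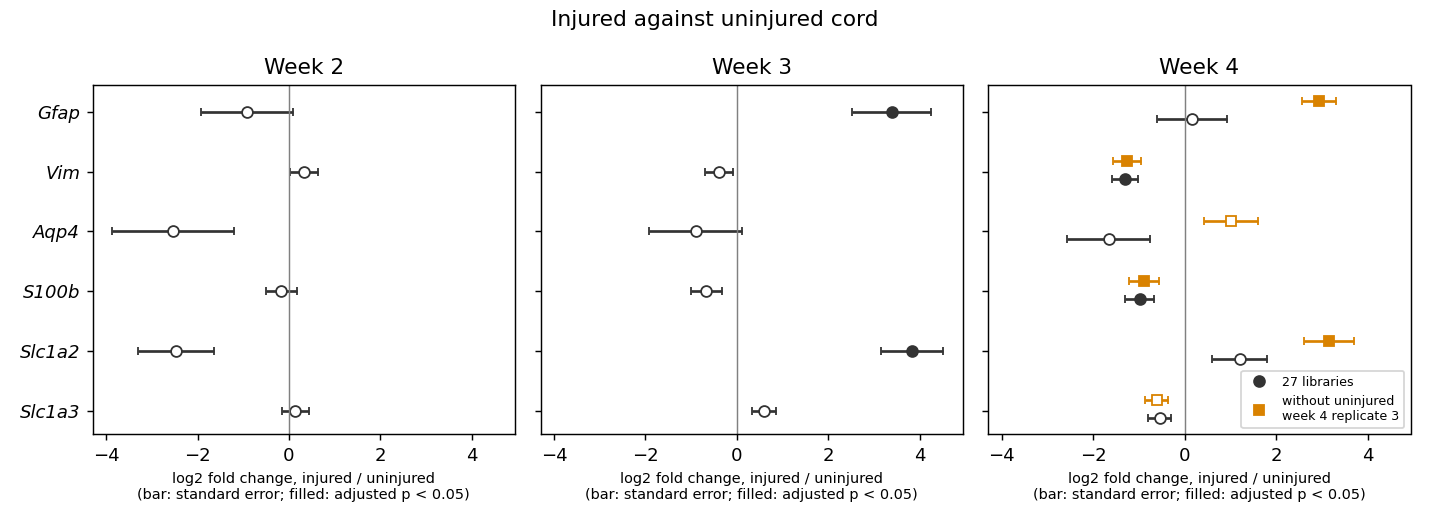
Log2 fold change of each gene in injured against uninjured cord at weeks 2, 3 and 4, with standard errors. Filled symbols had an adjusted p under 0.05, and orange squares at week 4 leave out uninjured week 4 replicate 3. At week 4 Gfap moves from 0.16 to 2.93 and Slc1a2 from 1.198 to 3.15 when it is left out, while Vim, S100b and Slc1a3 stay close.

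Within libraries, the ratio of Slc1a2 to Slc1a3 counts was 0.121, 0.113, 0.118 and 0.134 in culture. Injured week 3 libraries had 0.102, 0.0855 and 0.124, with 0.0992 in the replicate left out, and injured week 4 libraries 0.166, 0.102, 0.137 and 0.132. The injured and culture ranges overlapped, with Slc1a3 below culture in both injured groups and Slc1a2 called below it at week 4. Uninjured week 3 libraries had 0.00815, 0.00262, 0.0180 and 0.0179, and uninjured week 4 libraries 0.00503, 0.0114, 0.159 and 0.0141. Uninjured week 4 replicate 3 was again within the injured range.

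On the log2 scale the injured minus uninjured difference of this ratio was 3.49 at week 3 (exact two-sided permutation p = 0.0286, the smallest possible, adjusted 0.0571). It was 2.81 at week 4 (exact permutation p = 0.114, adjusted 0.137) and 3.83 without uninjured week 4 replicate 3 (exact permutation, adjusted p = 0.0343, against 0.0343 to 0.171 over the libraries left out in turn). At week 2 the sign was opposite, -2.80 (exact permutation p = 0.0286, the smallest possible, adjusted 0.0571), with uninjured ratios of 0.395, 1.41, 0.256 and 0.714 and injured ones of 0.0270, 0.0857, 0.189 and 0.0980. The groups did not overlap at weeks 2 and 3. No ratio test with all its libraries passed the adjusted threshold. At weeks 2 and 3 the unadjusted p was already the smallest possible. The adjusted 0.0571 there depended on how many of the other ratio tests came as low, so the adjusted test could not decide these weeks. For the same reason the adjusted 0.0343 at week 4 does not rank that difference above the one at week 3.

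**Figure D4:**
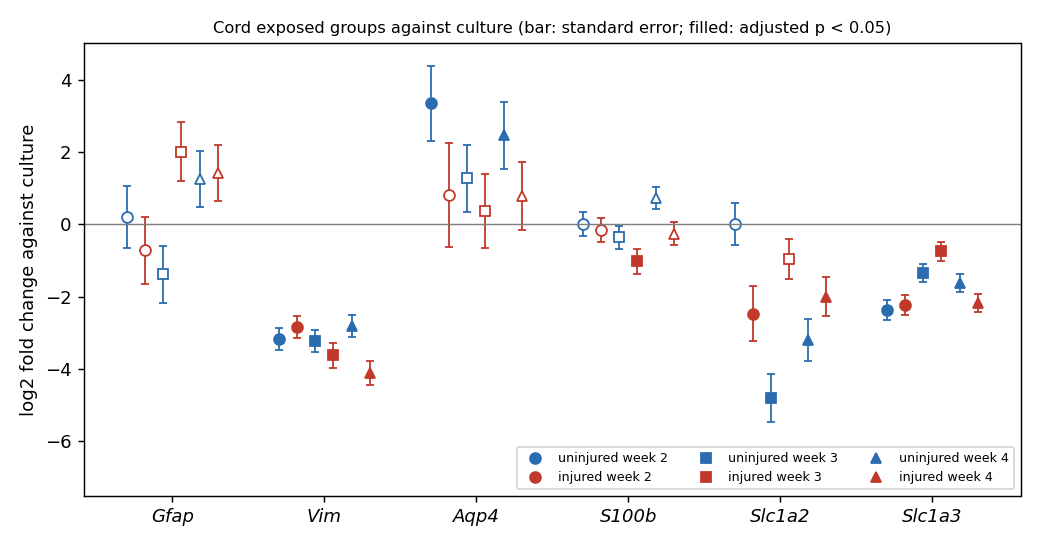
Log2 fold change against culture of each gene in the 6 cord groups, with standard errors. Blue symbols are uninjured and red symbols injured cord, filled where the adjusted p was under 0.05. Vim and Slc1a3 are filled and below 0 in every group, and Slc1a2 is lowest in uninjured week 3 at -4.80.

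Between weeks 3 and 4 of uninjured cord 0 members were called, against 0.525% of all genes in edgeR (0.441% higher, 0.084% lower). At an unadjusted p under 0.05, Gfap, S100b and Slc1a2 were higher at week 4. The share of all genes at that unadjusted threshold was not computed, and the 0.525% is for adjusted p. DESeq2 called Gfap and S100b, against 5.06% of all genes. Without uninjured week 4 replicate 3, Gfap stood at -0.14 and Slc1a2 at -0.38 on the log2 scale, and S100b at 0.98 (edgeR adjusted p = 0.945, 0.914 and 0.295). In injured cord 1 member was called between these weeks, against 21.6% of all genes (13.8% higher, 7.77% lower). It was Slc1a3, 2.67-fold lower at week 4 (log2 fold change -1.42 ± 0.26 (SE), edgeR adjusted p = 3.35e-05). From week 2 to week 3, 2 members were called in uninjured cord, against 20.3% of all genes (12.2% higher, 8.12% lower), with Slc1a2 lower and Slc1a3 2.02-fold higher (edgeR adjusted p = 0.00655). The Slc1a3 call was lost with RLE and with upper quartile factors, which moved the median of all genes in this comparison by -0.41 and -0.31. It was also lost without uninjured week 2 replicate 4 or uninjured week 3 replicate 3 (edgeR adjusted p = 0.101 and 0.059) and when only these groups were fitted (0.266). In injured cord 4 members were called, against 44.7% of all genes (24.7% higher, 20% lower), with Gfap and Slc1a3 higher and Vim and S100b lower at week 3. Slc1a3 rose 2.78-fold there (edgeR adjusted p = 4.39e-05).

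The order of the 7 groups differed between members. For Vim and Slc1a3 culture came first and did not overlap with the next group. Gfap was highest in injured week 3, at 334 ± 58.2 CPM (SD, n = 3), followed without overlap by injured week 4 at 220.5 ± 36.6 CPM (SD, n = 4), and lowest in uninjured week 3 at 31.4 ± 14.96 CPM (SD, n = 4). All other neighbours in the Gfap order overlapped. Without uninjured week 4 replicate 3, uninjured week 4 was the lowest group instead for Gfap (28.6 ± 5.11 CPM), Aqp4 (5.45 ± 1.80 CPM) and Slc1a2 (1.60 ± 0.835 CPM) (SD, n = 3), and injured week 4 no longer overlapped with the next group for Gfap. Slc1a2 was 62.1 ± 57.4 CPM in uninjured week 2 and 61.7 ± 2.80 CPM in culture, which overlapped, then 31.7 ± 9.50 CPM in injured week 3 (SD, n = 4, 4 and 3). Culture, injured week 3 and injured week 4 did not overlap with each other, and the groups below them did. For Aqp4 every neighbour in the order overlapped. For S100b uninjured week 4, at 467 ± 91.6 CPM (SD, n = 4), stood above culture without overlap, and all later neighbours overlapped. That S100b difference was not called (log2 fold change 0.73 ± 0.32 (SE), edgeR adjusted p = 0.0554). Without uninjured week 4 replicate 3 it was 0.48 (edgeR adjusted p = 0.252), and over 15 alternatives adjusted p ran from 0.00164 to 0.252. For Slc1a3 injured week 3 and uninjured week 3 did not overlap, nor did uninjured week 4 and injured week 4.

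Over the 27 libraries, the member closest to Gfap and to Slc1a2 in log2 CPM was each the other (Pearson r = 0.562), the closest pair for Vim was Slc1a3 (r = 0.612) and for Aqp4 it was S100b (r = 0.53). These values describe libraries that fall into 7 groups and share depth within them, and no p is attached. The 27 include uninjured week 4 replicate 3, high for Gfap, Slc1a2 and Aqp4, and r was not computed without it. Among the genes searched with a mean log2 CPM of at least 4, the highest r ran from 0.734 for Aqp4 to 0.884 for Slc1a3, and those genes are unnamed because the files carry no symbols.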

How the data were processed

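Per the submitters' processing notes, which give no roles, STAR 2.5.1 and featureCounts 1.5.1 were among the tools, and the build was GRCm38, a mouse build. The deposited identifiers are rat. The RNA kit kept strand, per the labels' protocols. Sources used here do not give the annotation or the strand setting, so reads of overlapping or antisense genes may be shared. The authors deposited raw counts per gene, with no normalization.

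The quasi-likelihood test of edgeR 4.0.16 (R 4.3.3) was fitted to 27 libraries and 14282 genes kept by filterByExpr, with TMM factors, robust dispersions and 20 residual degrees of freedom. Adjustment was by Benjamini-Hochberg over all genes and calls were made at 0.05. Standard errors are the log2 fold change divided by the root of F. The script was tested on simulated data. Injured week 3 replicate 3 was left out because its zeros count as missing. Its CPM use the TMM factors of all 28 libraries. Ratios used a pseudocount of 0.5 and exact permutation tests. Alternatives were all 28 libraries, RLE and upper quartile factors, DESeq2 1.42.0, no low count filter, compared groups only, no week 2 libraries, and each library left out in turn. The members, lists and tests were chosen with earlier results of these data known. All 6 members were to be named whatever their result. Other genes were to be named by symbol lists, which could not be applied, and genes most like a member by their r.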

Additional observations from a re-analysis of the deposited data

Results flagged for a closer look

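Dixon's ratio set 1 library apart from the other 3 in 8 of 48 groups of 4 values screened. About 2.4 would be set apart if all values were independent and normally distributed. The ratios share counts with the genes screened, and normality was not tested, so 8 against 2.4 does not measure an excess over chance. Uninjured week 4 replicate 3 was so placed for Gfap (709 CPM), Aqp4 (126.6 CPM) and Slc1a2 (23.7 CPM). Its Vim, S100b and Slc1a3 levels were not. In injured week 2, replicate 2 stood high for Vim (701 CPM) and replicate 1, the shallowest library, low for S100b (178 CPM). Uninjured week 2 replicate 2 stood high for Slc1a2 (148 CPM). In culture, replicate 1 stood high for Slc1a2 (65.9 CPM, against 60.0 to 60.4) and replicate 2 low for the log2 Gfap to Vim ratio (-5.42).

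The injury effect differed between weeks 3 and 4 for Slc1a2 (-2.64 on the log2 scale) and Slc1a3 (-1.15) by the edgeR test of that difference. The Slc1a2 difference rested on uninjured week 4 replicate 3, without which it was -0.81 (edgeR adjusted p = 0.597, range 4.03e-05 to 0.597 over the alternatives).

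Injured week 3 replicate 3, left out of the fit, held levels above all 4 uninjured week 3 libraries for Gfap (336 CPM), Slc1a2 (30.4 CPM) and Slc1a3 (308 CPM), as its companions did.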

How the results depend on the processing

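No paired analysis was possible because the labels give no replicate numbers that groups share. Shares in brackets are of all genes called in the same fit. With all 28 libraries the members called fell from 2 to 1 (17.3%) for injured against uninjured at week 4 and from 4 to 2 (36.7%) for injured week 3 against week 2. For uninjured week 3 against week 2, RLE (15.4%) and upper quartile factors (15.5%) each called 1 in place of 2, and for the change of the injury effect RLE factors called 4 (19.8%) in place of 2. DESeq2 called 1 (10.8%) in place of 0 for injured against uninjured at week 2, 2 (5.06%) in place of 0 for uninjured week 4 against week 3 and 4 (23.9%) in place of 2 for uninjured week 3 against week 2. Without the low count filter the counts were 2 (2.39%) and 4 (15.8%) for injured against uninjured at weeks 2 and 4, 5 (29.6%) for uninjured week 3 against culture, 4 (1.44%) for uninjured week 4 against 3, 4 (14.3%) for uninjured week 3 against 2, 2 (12.4%) for injured week 4 against 3 and 4 (11%) for the change of the injury effect. The 4 for uninjured week 4 against 3 were all higher, and the week 4 injury count included Aqp4 lower (edgeR adjusted p = 4.76e-05). Both counts include uninjured week 4 replicate 3. With the filter and without that library, week 4 against 3 gave -0.14 (Gfap), -1.48 (Aqp4), -0.38 (Slc1a2) and 0.98 (S100b) on the log2 scale. The week 4 injury value of Aqp4 was then 1.003. Fits of the compared groups only gave 5 for uninjured week 3 (70.3%), injured week 3 (52%) and injured week 4 (58%) against culture, 4 (38.9%) for injured week 4 against 3 and 1 (30.7%) for the change of the injury effect. Without week 2 libraries, 1 (11.9%) was called for uninjured week 4 against 3 and 1 (34.1%) for the change of the injury effect.

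Counts with single libraries left out follow, and brackets here hold the share of all genes called with 27 libraries. Injured against uninjured at week 4 gave 1 to 4 called members (27.3%) and injured week 3 against culture 1 to 2 (19.2%). Injured week 3 against 2 gave 2 to 3 (44.7%) and uninjured week 3 against 2 gave 1 to 2 (20.3%). Uninjured week 4 against 3 gave 0 to 1 (0.525%) and the change of the injury effect 1 to 3 (18.7%). The 4 came without uninjured week 4 replicate 3, where the share was 24.4%. Shares without other single libraries are not given, so these ranges are not set against them. The differences of log2 ratios at week 4 ran from 2.17 to 3.83 for Slc1a2 to Slc1a3 and from 2.61 to 4.21 for Gfap to Vim. The sign turned when single libraries were left out, and the log2 fold changes then ran over these ranges. Injured against uninjured at week 4 gave -0.28 to 2.93 for Gfap and -2.12 to 1.003 for Aqp4. Uninjured week 4 against culture gave -1.68 to 1.62 for Gfap and -0.37 to 2.81 for Aqp4. Uninjured week 4 against week 3 gave -0.14 to 3.07 for Gfap, -1.48 to 1.73 for Aqp4 and -0.38 to 2.06 for Slc1a2. Uninjured week 3 against week 2 gave -1.07 to 0.045 for S100b, the last without uninjured week 2 replicate 2. Where the sign turned in a comparison with uninjured week 4, the end of the range that lies apart from the value with 27 libraries came without uninjured week 4 replicate 3. For Gfap in injured against uninjured cord that end, 2.93, kept the sign of the value with 27 libraries. There the sign turned without uninjured week 4 replicate 1, 2 or 4 (-0.20, -0.28 and -0.21). The cause of the changes in call counts was not tested. The falls of Vim and Slc1a3 against culture, Slc1a3 in injured week 3 apart, passed under every alternative run. Low week 2 counts limit all week 2 values.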
